A study of Mus musculus with 59 samples.

Results

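Genes of cholesterol synthesis and sterol control were followed through the first cell cycles of cloned mouse embryos. The list holds 28 genes chosen by name for their function, of 24421 genes in the table: 19 enzymes that lead from acetyl-CoA to cholesterol, and 9 genes that sense or move sterols. It does not hold every enzyme of the pathway, and it was chosen with earlier results of these data known. The embryos were made by somatic cell nuclear transfer (SCNT), with BDF1 as the labelled strain and cumulus cells as the labelled donors of nuclei, and the protocol names C57BL/6n females of 5 to 7 weeks as a source of oocytes. Zonae and polar bodies were taken off before the RNA was prepared. Some embryos had been treated with TSA (trichostatin A, which inhibits histone deacetylases) and were collected at the late 2-cell stage, and the rest, untreated, were collected at 3 stages. The untreated stages were 1-cell at 13 to 14 h after activation, early 2-cell at 20 to 21 h and late 2-cell at 33 to 34 h, and the TSA-treated embryos were also collected at 33 to 34 h. No source used here gives the dose or timing of TSA, or how many embryos made up a library. Each of these 4 groups has 5 RNA libraries in the labels, but a gene has a single deposited value for each group, and therefore no value below has an error and no difference has a test. The series also holds 4 RNA libraries of embryos injected with Dux and 35 libraries of chromatin, not analysed here. The column of the 1-cell group is named by 13 h and was matched to that stage through the collection time.

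Cholesterol is built from acetyl-CoA through mevalonate, the isoprenoid diphosphates, squalene and lanosterol, and the last steps trim and reduce the lanosterol skeleton. The enzyme genes are driven by the transcription factors SREBP-1 and SREBP-2, which SCAP carries from the endoplasmic reticulum to the Golgi when sterols are scarce and which INSIG proteins hold back when sterols are plentiful. SREBPs bind sterol response elements in promoters together with NF-Y, which binds CCAAT boxes, and Sp1, which binds GC boxes. Growing mouse oocytes are known to make little cholesterol themselves and to depend on their cumulus cells for it. The embryo's own genome is broadly switched on between the early and the late 2-cell stage.

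All values below are FPKM, fragments scaled by transcript length and library size, recovered from the deposited log2(FPKM + 1). Differences are on the log2(FPKM + 1) scale, on which 1 is 2-fold, and a gene was counted as higher or lower at 1 or more. Each comparison kept the genes that reached 1 FPKM in some column it used, where both stage comparisons used all 3 untreated columns. Of the 28 genes, 26 were kept and 2, Tm7sf2 and Srebf1, were not. Of the 26, 7 reached 1 FPKM in untreated embryos at the late 2-cell stage and at no earlier one, so they had to be higher there. Depth is unknown, which leaves the precision of low values unknown too. Maternal oocyte transcripts were present throughout, with 10 of 10 markers at 1 FPKM or more in each column, but their levels differed. At the late 2-cell stage 6 of the 10 were at least 2-fold lower than at the early one and 1 was higher, with a median difference of -1.31. Of all kept genes 10.8% were lower and 47.1% higher, with a median of 0.89. As deposited, 0 were 2-fold apart with TSA but 9 of the 10 were below untreated embryos, with a median difference of -0.33. Of all 12756 kept genes 4.08% were 2-fold lower with TSA and 2.51% higher. In all 7238 of them were below untreated embryos, with a median of -0.08. The part of maternal RNA in the differences below was not tested. Of 6 late 2-cell markers, 3 reached 1 FPKM at 1-cell, 2 at early 2-cell and 6 at late 2-cell, and 6 also did with TSA.

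Promoters of the listed genes were searched for the 3 motifs on both strands, in the 250 bases before each annotated start (RefSeq, GRCm38.p6). Windows were at hand for 23 of the 28 genes. A CCAAT box (CCAAT) stood in 19 of these 23 genes and in 15 of the 16 enzymes among them, Acat2 being the enzyme without one. It stood in 41.1% of the 9802 genes that had a window and were kept in the stage comparisons, and in 37.5% of all 27025 genes with a window. A GC box (GGGCGG) stood in 20 of the 23, against 60.7% of the kept genes. The sterol response element, searched as TCACNCCAC, stood in 1 of the 23, Hmgcs1, against 1.31% of the kept genes. Genes with several annotated starts were counted once if any window held the motif. These are letter matches, not measured binding, and elements that differ from these letters were not searched. The windows of 4 genes are printed because they differ in both motifs and RNA. Hmgcs1 and Insig1 were abundant from the 1-cell stage, Mvk appeared at the late 2-cell stage, and Acat2 is the enzyme without a CCAAT box. Capitals mark the motifs on either strand (CCAAT reads ATTGG, and GGGCGG reads CCGCCC, on the opposite strand), and no matches overlap in these windows. Hmgcs1 is at chr13:119690101-119690350, plus strand. Mvk is at chr5:114444019-114444268, plus strand. Acat2 is at chr17:12960726-12960975, minus strand. Insig1 is at chr5:28071162-28071411, plus strand.
Hmgcs1: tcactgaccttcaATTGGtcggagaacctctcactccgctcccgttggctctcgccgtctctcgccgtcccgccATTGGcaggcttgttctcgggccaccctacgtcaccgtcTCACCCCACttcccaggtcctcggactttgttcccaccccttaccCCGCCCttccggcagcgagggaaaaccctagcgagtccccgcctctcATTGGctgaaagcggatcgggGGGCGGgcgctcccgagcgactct
Mvk: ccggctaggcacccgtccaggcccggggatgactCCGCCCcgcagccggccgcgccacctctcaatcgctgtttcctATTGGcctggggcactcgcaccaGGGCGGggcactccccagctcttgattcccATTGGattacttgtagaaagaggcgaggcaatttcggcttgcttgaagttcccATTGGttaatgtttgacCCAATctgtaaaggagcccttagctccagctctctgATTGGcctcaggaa
Acat2: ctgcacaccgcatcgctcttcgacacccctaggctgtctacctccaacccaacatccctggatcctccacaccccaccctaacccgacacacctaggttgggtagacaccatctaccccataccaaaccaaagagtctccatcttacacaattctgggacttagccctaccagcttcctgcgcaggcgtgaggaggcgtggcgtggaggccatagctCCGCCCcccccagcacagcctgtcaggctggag
Insig1: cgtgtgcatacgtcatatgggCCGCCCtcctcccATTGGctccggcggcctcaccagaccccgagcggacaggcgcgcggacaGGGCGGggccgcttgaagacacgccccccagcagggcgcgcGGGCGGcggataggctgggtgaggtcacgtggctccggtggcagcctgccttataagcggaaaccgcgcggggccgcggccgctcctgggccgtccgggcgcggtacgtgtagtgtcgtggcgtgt

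The mevalonate segment held 1 abundant enzyme and 4 that were under 5 FPKM at both earlier stages. Hmgcs1, the HMG-CoA synthase, was at 53.1 FPKM in 1-cell, 21.8 in early 2-cell and 30.1 in late 2-cell embryos, so it was lowest in the middle. Acat2, the thiolase that joins acetyl-CoA units, was at 3.69, 4.96 and 21.1 FPKM at the same stages. Mvk, mevalonate kinase, was at 0.041, 0.17 and 8.85 FPKM, near 0 until the late 2-cell stage. Pmvk, the kinase that follows it, was likewise near 0 at first, at 0.27, 0.056 and 3.94 FPKM. Mvd, which decarboxylates the product to isopentenyl diphosphate, was at 0.83, 0.84 and 7.56 FPKM. These 3 consecutive enzymes were thus all under 1 FPKM in both earlier columns. Acat2 has a mouse paralog beside it, Acat3, at 0.12, 0.076 and 0.50 FPKM over the 3 stages, and how reads shared by the pair were assigned is not stated in any source at hand.

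In the isoprenoid segment the first enzyme went the other way from the next ones. Idi1, isopentenyl diphosphate isomerase, was at 38.8 FPKM in 1-cell, 35.4 in early 2-cell and 24.7 in late 2-cell embryos, 1 of 2 listed genes that descended over the 3 stages. Fdps, farnesyl diphosphate synthase, was at 1.01, 1.79 and 15.6 FPKM. Ggps1, which makes geranylgeranyl diphosphate for protein prenylation on a side branch, was at 8.73, 9.35 and 52.5 FPKM. Both of these were highest at the late 2-cell stage.

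The squalene segment held the enzyme with the highest level of the list in each column. Fdft1, squalene synthase, was at 109 FPKM in 1-cell, 43.0 in early 2-cell and 117 in late 2-cell embryos, so it was lowest in the middle. Its gene, on chromosome 14 from 63145150 to 63181687, overlaps Ctsb by 774 bp, and Ctsb was at 5.28, 3.99 and 141 FPKM, so reads of the shared stretch could belong to either. Sqle, squalene epoxidase, was at 6.99, 9.60 and 43.9 FPKM. Lss, which closes the ring to lanosterol, was at 2.68, 2.81 and 17.4 FPKM. Sqle and Lss ascended over the 3 stages.

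The enzymes after lanosterol held transcripts that ascended, that descended and that were lowest in the middle. Cyp51, the demethylase whose product is the meiosis-activating sterol FF-MAS, was at 0.15 FPKM in 1-cell, 0.98 in early 2-cell and 7.78 in late 2-cell embryos. Tm7sf2, a sterol reductase, stayed low at 0.12, 0.24 and 0.69 FPKM. Msmo1, a methyl oxidase, was at 6.70, 4.91 and 11.8 FPKM. Each of these 3 had its highest value at the late 2-cell stage, but Msmo1 dipped at the early 2-cell stage and the others did not. Nsdhl, the next dehydrogenase and an X-linked gene, descended, at 20.4, 12.6 and 10.5 FPKM. Hsd17b7, a keto reductase, was at 24.5, 19.9 and 43.4 FPKM. Ebp, the X-linked sterol isomerase, was at 1.32, 2.76 and 16.0 FPKM. Nsdhl and Ebp, both on the X chromosome, thus had opposite orders. Sc5d, a desaturase, was at 8.38, 6.51 and 12.0 FPKM. Dhcr7, which makes cholesterol in the final reduction of one branch, was at 0.61, 0.46 and 12.0 FPKM. Its gene lies on chromosome 7 from 143823167 to 143848410.

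**Figure D1:**
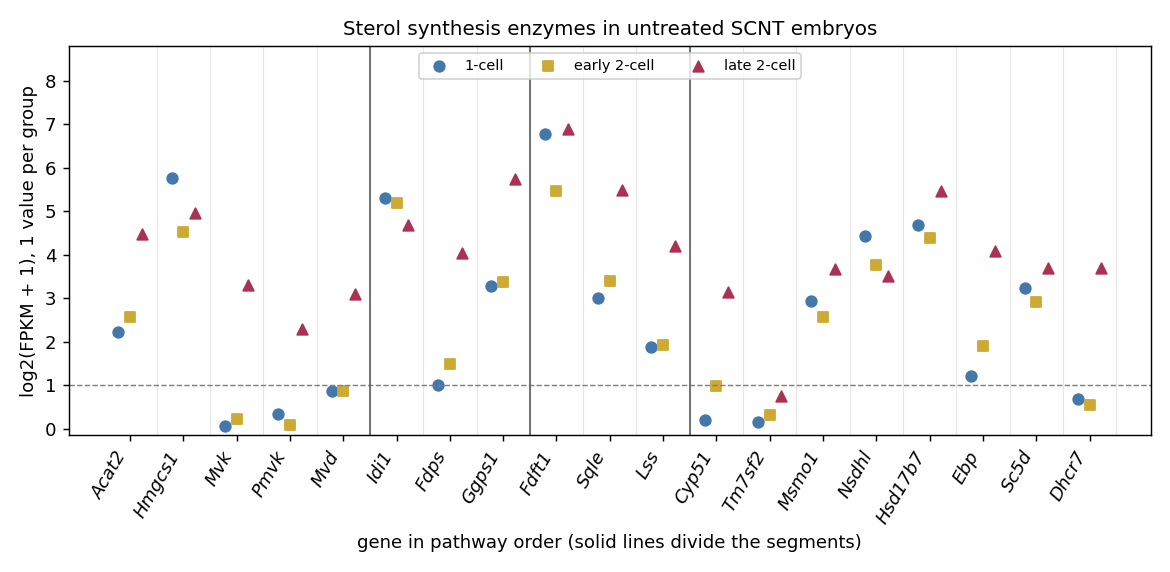
Level of each of the 19 enzymes in pathway order (x axis) on the log2(FPKM + 1) scale (y axis), with 1 point per untreated group (circles 1-cell, squares early 2-cell, triangles late 2-cell) and a dashed line at 1 FPKM. Triangles are on top for most enzymes, while Idi1, Nsdhl and Hmgcs1 were highest at the 1-cell stage.

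Among the regulators, Insig1 stood out by its level. Insig1, which retains the SREBP-SCAP complex, was at 177 FPKM in 1-cell, 147 in early 2-cell and 171 in late 2-cell embryos, the highest level of the 28 genes in each column. Insig2, its paralog, was at 16.5, 18.7 and 35.0 FPKM. Scap, the escort of SREBPs, was at 9.24, 8.92 and 15.8 FPKM. These 3 genes of the sterol sensor were therefore above 8 FPKM at every stage.

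The SREBP genes themselves were scarce beside them. Srebf2, which encodes SREBP-2, the main driver of cholesterol genes, was at 0.27 FPKM in 1-cell, 0.26 in early 2-cell and 4.97 in late 2-cell embryos. Srebf1, which encodes SREBP-1, was at 0.67, 0.54 and 0.79 FPKM and so stayed under 1 FPKM. Nr1h2, the liver X receptor beta that responds to oxysterols, was at 1.83, 1.41 and 14.4 FPKM. Srebf2 and Nr1h2 had in common low values at both earlier stages.

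Sterol carriers differed among themselves. Stard4, a cytosolic sterol carrier, was at 24.9 FPKM in 1-cell, 10.7 in early 2-cell and 25.1 in late 2-cell embryos. Npc1, which exports cholesterol from lysosomes, had the same shape at 5.11, 1.90 and 4.71 FPKM. Npc1 overlaps the gene Rmc1 by 8982 bp, listed in the table under the older name 3110002H16Rik at 4.46, 3.03 and 40.9 FPKM. Abca1, the cholesterol efflux pump, was at 0.26, 0.60 and 2.97 FPKM and ascended.

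**Figure D2:**
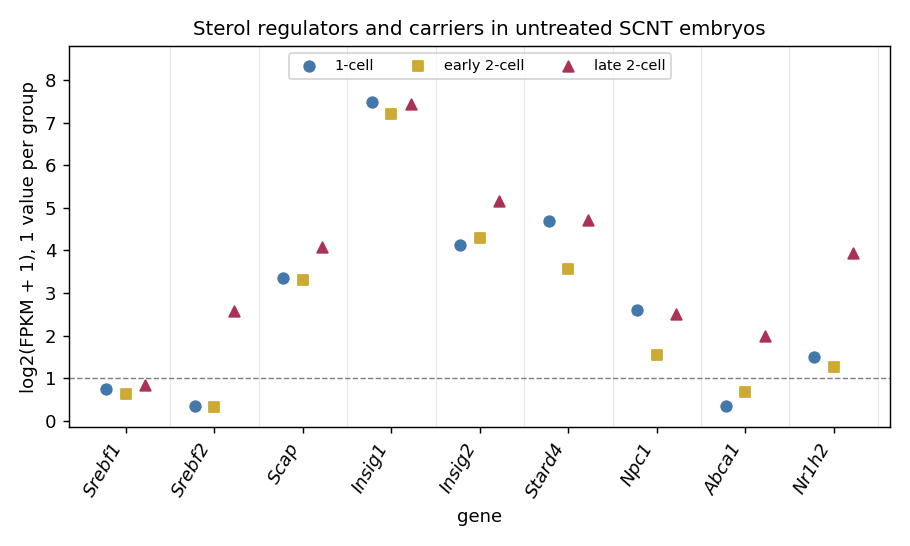
Level of each of the 9 regulators and carriers (x axis) on the log2(FPKM + 1) scale (y axis), with 1 point per untreated group (circles 1-cell, squares early 2-cell, triangles late 2-cell) and a dashed line at 1 FPKM. Insig1 lies highest at each stage, Srebf1 stays under the dashed line, and Srebf2 and Nr1h2 have their highest point at the late 2-cell stage.

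The late 2-cell stage was compared with the early 2-cell stage in untreated embryos, the interval of genome activation. Of the 26 kept genes, 18 (69.2%) were at least 2-fold higher at the late 2-cell stage, where 47.1% of 13012 kept genes were, and 0 were at least 2-fold lower, where 10.8% of kept genes were. The enzymes made up 14 of the 18 and had a median difference of 2.11, against 1.07 for the regulators and 0.89 for all kept genes. The largest differences were those of Dhcr7 (3.15), Mvk (3.07), Nr1h2 (2.68), Fdps (2.57) and Ggps1 (2.37). Idi1 (-0.50) and Nsdhl (-0.24) were the 2 genes with a lower value at the late 2-cell stage. Just inside the 2-fold line were Hsd17b7 (1.08) and Msmo1 (1.12), and just outside were Npc1 (0.98) and Insig2 (0.87).

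By segment, 4 of 5 mevalonate enzymes, 2 of 3 isoprenoid enzymes, 3 of 3 squalene enzymes and 5 of 7 kept enzymes after lanosterol were at least 2-fold higher at the late 2-cell stage. Of all kept genes 47.1% were. The enzymes counted include Mvk, Pmvk, Mvd, Cyp51 and Dhcr7, which reached 1 FPKM at no earlier stage. Of the 8 kept regulators, 4 (50%) were, near the share of all kept genes, namely Srebf2 (2.24), Stard4 (1.15), Abca1 (1.31) and Nr1h2. Srebf2 and Abca1 reached 1 FPKM at no earlier stage. Stard4 and Abca1 were under 2-fold with median-ratio factors (0.57 and 0.96) and quantile normalization (0.19 and 0.37). So were the enzymes Fdft1, Msmo1 and Hsd17b7, at 0.82, 0.57 and 0.49 with median-ratio factors. They were at 0.86, 0.016 and 0.31 with quantile normalization, under which Acat2 was at 0.88. Insig1 differed by 0.22, less than the median gene. The stages have 1 value each, so these counts have no test.

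The size of this difference depends on scaling. Median-ratio size factors lowered the median of all kept genes to 0.44 and quantile normalization lowered it to 0.014. With median-ratio factors 13 of the 26 were at least 2-fold higher and 1 lower, against 35.3% and 18.2% of all kept genes. With quantile normalization 12 were higher and 2 lower, against 25.9% and 25.9%. Among all kept genes, those higher made up 81.4% of the genes 2-fold apart, against 66.0% and 50.1% under the same scalings. Relative to the median of all kept genes, the enzyme median was 1.23 higher as deposited, 1.14 with median-ratio factors and 1.09 with quantile normalization. The regulator median was 0.18, 0.11 and 0.11 higher in the same order. The sign of Hmgcs1, Srebf1 and Insig1 was negative after both scalings, and that of Tm7sf2, Sc5d, Scap and Npc1 after quantile normalization. With the filter set on the 1-cell and early 2-cell columns alone, a choice made after the values were seen, 11 of 19 listed genes were at least 2-fold higher, against 36.8% of 10117 genes.

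Across the first cleavage, early 2-cell embryos were set against 1-cell embryos. Of the 26 kept genes, 4 (15.4%) were at least 2-fold lower at the early 2-cell stage, where 5.53% of kept genes were, and 0 were at least 2-fold higher, where 2.89% were. The differences of these 4 were -1.32 for Fdft1, the squalene synthase, -1.24 for Hmgcs1, -1.14 for Stard4 and -1.07 for Npc1. In plain FPKM the early 2-cell value was 0.39 of the 1-cell value for Fdft1, 0.41 for Hmgcs1, 0.43 for Stard4 and 0.37 for Npc1. With quantile normalization 1 of the 26, Fdft1, was at least 2-fold lower, against 4.32% of all kept genes. The others of these 4 were then at -0.97 for Hmgcs1, -0.86 for Stard4 and -0.96 for Npc1. The enzymes had a median of -0.06 and the regulators of -0.14, against -0.03 for all kept genes, and the enzyme median had the opposite sign after median-ratio scaling (0.042) and quantile normalization (0.013). The largest positive differences were those of Cyp51 (0.79) and Ebp (0.70), and Cyp51 passed 1 after quantile normalization (1.03) and after rescaling to TPM (1.17). Among all kept genes, those higher made up 34.3% of the genes 2-fold apart, against 48.7% with median-ratio factors and 47.7% with quantile normalization.

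Over the 3 untreated stages, 21 of the 26 kept genes had their highest value at the late 2-cell stage, against 65.0% of all kept genes. The 7 genes that reached 1 FPKM at no earlier stage had to be among these 21. The other 5, Hmgcs1, Idi1, Nsdhl, Insig1 and Npc1, were highest at the 1-cell stage, against 22.1% of kept genes, and 0 were highest at the early 2-cell stage, against 12.8%. A dip, with the early 2-cell value below both others, was seen in 13 of the 26, against 36.9% of kept genes. Of these, Srebf2 and Scap were nearly level between 1-cell and early 2-cell (-0.011 and -0.046). Hmgcs1, Insig1 and Scap had no dip after either median-ratio scaling or quantile normalization. Srebf2 had none after the first, and Sc5d and Npc1 had none after the second, under which Mvd had one. The share of dips among all kept genes was not counted under these scalings. Values ascended over the stages in 11, against 32.6%, and descended in 2, against 16.2%. Both consecutive comparisons use the early 2-cell column, so a low value in that column alone gives a dip. With quantile normalization 16 genes were highest at late 2-cell, 8 at 1-cell and 2 at early 2-cell. The shares of all kept genes under that scaling were not counted.

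**Figure D3:**
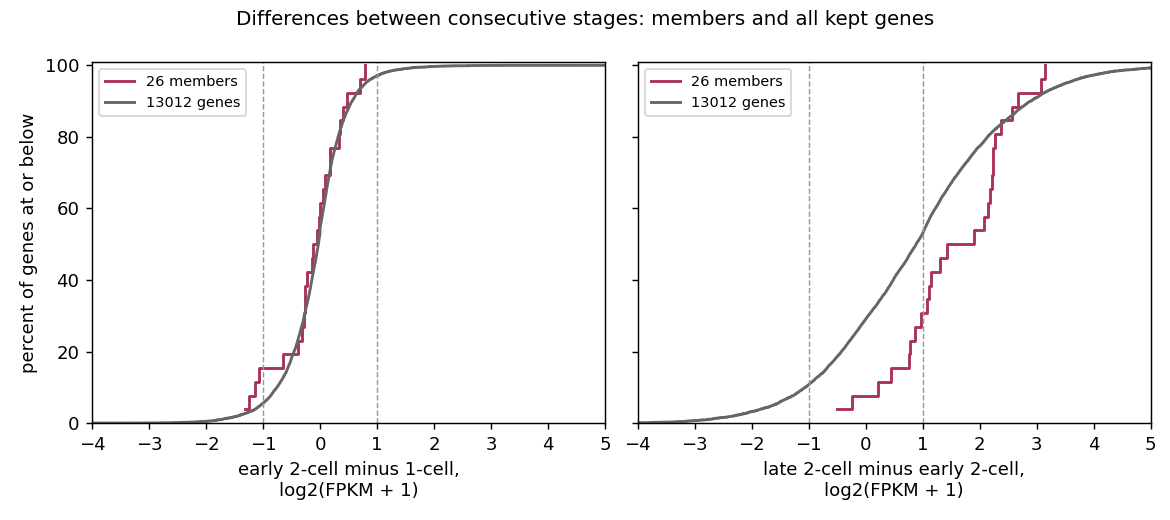
Cumulative percent of genes (y axis) at or below a difference on the log2(FPKM + 1) scale (x axis), for early 2-cell minus 1-cell (left) and late 2-cell minus early 2-cell (right), with the 26 kept genes of the list in red, all 13012 kept genes in grey and dashed lines at differences of -1 and 1. The curves lie close together on the left, apart from 4 listed genes below -1, and on the right the red curve lies to the right of the grey one over most of its length.

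At the late 2-cell stage, TSA-treated embryos were set against untreated ones. None of the 26 kept genes of the list was 2-fold apart on the log2(FPKM + 1) scale: 0 were higher, where 2.51% of 12756 kept genes were, and 0 were lower, where 4.08% were. The enzymes had a median difference of -0.12 and the regulators of -0.29, against -0.08 for all kept genes. Of the 26, 8 were above 0 and 18 below, where 5518 (43.3%) of the 12756 kept genes were above 0 and 7238 below. After median-ratio scaling, which moved the median of all kept genes to 0.049, the enzyme median was 0.016 and the regulator median -0.16. Relative to the median of all kept genes, the enzymes were 0.044 lower and the regulators 0.21 lower as deposited. Among all kept genes, those higher with TSA made up 38.1% of the genes 2-fold apart, against 58.2% after median-ratio scaling and 53.8% after quantile normalization. This comparison shares its untreated column with the one between the 2-cell stages.

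The lowest differences with TSA were those of Fdps and Mvd, which use and make isopentenyl diphosphate. Fdps was at 7.57 FPKM with TSA, against 15.6 without, a difference of -0.95. Mvd was at 3.55 FPKM with TSA, against 7.56 without, a difference of -0.91. In plain FPKM the values with TSA were 0.49 of those without for Fdps and 0.47 for Mvd, and with a pseudocount of 0.1 both genes passed the 2-fold line (-1.03 for Fdps and -1.07 for Mvd). An annotated lncRNA, Gm51557, overlaps Mvd by 3213 bp, and an snRNA overlaps Fdps by 104 bp. In all, 10 of the 28 genes overlap another RefSeq gene, and whether strand was used in counting is not known here. Idi1, between them in the pathway, was at 17.6 FPKM with TSA, against 24.7 without (-0.47). Lss was at 11.3 against 17.4 FPKM (-0.58) and Msmo1 at 8.36 against 11.8 FPKM (-0.45). The isoprenoid segment was the only one of the 4 enzyme segments in which each gene was lower with TSA as deposited, and Ggps1, at 50.4 against 52.5 FPKM, was higher after median-ratio scaling.

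Both kinases between mevalonate and Mvd had higher values with TSA. Mvk was at 12.3 FPKM with TSA, against 8.85 without, a difference of 0.43. Pmvk was at 5.45 against 3.94 FPKM (0.38). Fdft1 was at 143 FPKM with TSA, against 117 without, and its overlapping neighbour Ctsb was at 190.3 against 141 FPKM. Late steps were mixed, with Ebp at 21.8 against 16.0 FPKM (0.42), Hsd17b7 at 55.2 against 43.4 (0.34) and Dhcr7 at 13.0 against 12.0 (0.11). Smaller differences were seen for Acat2 at 17.1 against 21.1 FPKM, Sqle at 37.4 against 43.9, Cyp51 at 6.70 against 7.78 and Sc5d at 10.3 against 12.0. Hmgcs1, at 30.3 against 30.1 FPKM, and Nsdhl, at 10.1 against 10.5, were almost level, and Tm7sf2 was at 0.86 against 0.69.

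Of the 8 kept regulators, 7 had a lower value with TSA, as had 7238 of all 12756 kept genes. Srebf2 had a higher one, at 6.13 FPKM with TSA against 4.97 without (0.26). Npc1 had the lowest difference, at 2.63 against 4.71 FPKM (-0.65), while the gene it overlaps, Rmc1, was at 56.5 against 40.9. Stard4 was at 19.4 against 25.1 FPKM, Nr1h2 at 11.1 against 14.4 and Abca1 at 2.29 against 2.97. In the SREBP system Insig1 was at 153 against 171 FPKM, Scap at 12.6 against 15.8, Insig2 at 33.6 against 35.0 and Srebf1 at 0.69 against 0.79. The sign of Insig2 was opposite after median-ratio scaling. None of these reached 2-fold.

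**Figure D4:**
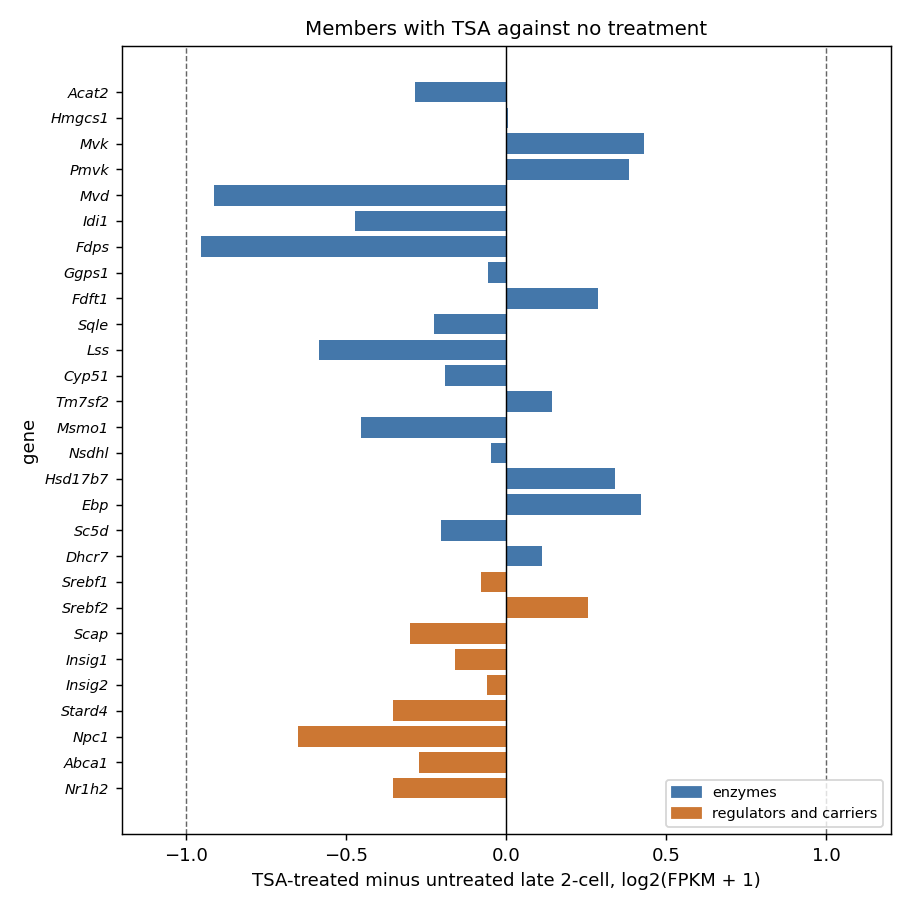
Difference of each of the 28 genes between TSA-treated and untreated late 2-cell embryos (x axis, TSA-treated minus untreated, log2(FPKM + 1)), enzymes in pathway order from the top in blue and regulators and carriers in orange, with dashed lines at -1 and 1. Every bar lies inside the dashed lines, with Fdps (-0.95) and Mvd (-0.91) reaching furthest to the left and Mvk (0.43) and Ebp (0.42) furthest to the right.

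Markers of cumulus and granulosa cells, the donor type and a tissue that makes cholesterol, were measured in the same columns. Of 21 markers, 8 reached 1 FPKM in 1-cell, 9 in early 2-cell and 8 in late 2-cell embryos, and 9 did with TSA. Their summed level was 40.8, 49.2 and 135 FPKM over the 3 stages and 85.5 FPKM with TSA. Anxa2 had the highest level of them in untreated late 2-cell embryos, at 23.6 FPKM with TSA, against 67.0 without. Next in untreated late 2-cell embryos were Gja1 at 29.5, Kitl at 11.8 and Lgals1 at 9.06 FPKM. The other markers were each under 5 FPKM there, so the sum rests on a few genes and does not describe the list. Of 10 markers kept in the TSA comparison, 3 were at least 2-fold lower with TSA and 0 higher, against 4.08% and 2.51% of all kept genes. These 3 were Anxa2, Lgals1, at 1.28 FPKM with TSA, and Fshr. Fshr reached 1 FPKM only without TSA, so it had to be lower with TSA. Ptgs2 and Cyp19a1 reached it only with TSA, so they had to be higher. Of the 10, 4 were above untreated embryos and 6 below. The 4 were Ptgs2, Cyp19a1, Amhr2, at 4.96 FPKM with TSA against 3.01 without, and Gja1, at 34.7 against 29.5. Of 11 kept in the stage comparisons, 6 were at least 2-fold higher and 2 lower at the late than at the early 2-cell stage, against 47.1% and 10.8%. Of the 11, 2 reached 1 FPKM at no stage before late 2-cell, so they had to be higher there. The steroid and matrix genes of these cells differed among themselves. Cyp19a1, the aromatase, was at 8.31 FPKM in 1-cell, 6.26 in early 2-cell and 0.50 in late 2-cell embryos, and at 1.7 with TSA. Hsd3b1 was at 1.39, 3.11 and 0.28 FPKM over the stages and Has2 at 2.82, 1.34 and 0.75, so these 3 were lowest of the stages at late 2-cell. Cyp11a1 was lower, at 0.40, 0.49 and 0.11 FPKM, while Fshr was at 0.35, 0.29 and 1.64. With TSA Has2 was at 0.67 FPKM, and Hsd3b1, Cyp11a1, Fshr, Inha and Lhcgr were listed at 0. At the stages without TSA, those listed at 0 were Amh in 1-cell, Amh, Inha, Lhcgr and Foxl2 in early 2-cell, and Ptx3 and Inha in late 2-cell embryos. Whether RNA from such cells had a part in the differences above was not tested. Marker RNA from such cells and marker RNA made in the embryos cannot be told apart in these columns.

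Other genes of the pathway were read from lists chosen by function, also with earlier results of these data known. The genes named from them had the same direction, and stayed 2-fold apart, with median-ratio, quantile and TPM scaling, unlike some of the list counts. Of 6 kept genes that feed the pathway or act on sterols, 1 was at least 2-fold higher and 1 lower at the late than at the early 2-cell stage, where 47.1% and 10.8% of all kept genes were. Lbr, a lamin receptor with sterol reductase activity, was at 81.1 FPKM in late 2-cell, against 15.1 in early 2-cell embryos. Acat1, the mitochondrial thiolase, was at 37.9 against 83.9 FPKM. At the first cleavage Acss2, an acetyl-CoA synthetase, was at 1.83 FPKM in early 2-cell, against 0.24 in 1-cell embryos. It was the 1 gene of 6 at least 2-fold higher, against 2.89% of all kept genes. With TSA 0 of the 6 were 2-fold apart, where 4.08% of all kept genes were lower and 2.51% higher. The median of the 6 between the 2-cell stages was 0.67 as deposited and -0.40 after quantile normalization.

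Genes that process or degrade SREBP, SCAP and INSIG, or act beside SREBP, were as varied. Of 15 kept, 7 (46.7%) were at least 2-fold higher at the late 2-cell stage and 2 (13.3%) lower, near the 47.1% and 10.8% of all kept genes. After quantile normalization 4 were higher and 4 lower, also near the 25.9% and 25.9% of all kept genes. Mbtps1, the protease that makes the first cut in SREBP, was at 25.5 FPKM in late 2-cell, against 1.91 in early 2-cell embryos. Nfyb, an NF-Y subunit, was at 97.2 against 12.8 FPKM and Erlin1, which takes part in the degradation of sterol-regulated membrane proteins, at 18.7 against 2.99. The 2 lower genes were Fbxw7, at 0.50 against 2.85 FPKM, and Sar1b, at 10.8 against 25.2 FPKM. At the first cleavage 0 of the 15 were 2-fold apart as deposited, where 5.53% of all kept genes were lower and 2.89% higher. With TSA 0 of the 15 were, where 4.08% of all kept genes were lower and 2.51% higher. With TSA 1 was higher after median-ratio or TPM scaling, against 3.18% and 3.86% of all kept genes.

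Of 19 kept genes of cholesterol uptake, storage and transport, 12 were at least 2-fold higher at the late than at the early 2-cell stage and 0 lower, against 47.1% and 10.8% of all kept genes. Of the 19, 9 reached 1 FPKM at no stage before late 2-cell, so they had to be higher there. After quantile normalization 6 were higher and 3 lower, against 25.9% and 25.9%. Npc2, the lysosomal partner of Npc1, was at 221 FPKM in late 2-cell, against 45.3 in early 2-cell embryos. Soat2, which esterifies cholesterol, was at 5.17 FPKM in late 2-cell embryos and listed at 0 in early 2-cell embryos. With TSA 2 of 19 were at least 2-fold higher and 0 lower, against 2.51% and 4.08% of all kept genes. Abcg1, an efflux transporter and liver X receptor target, was at 6.00 FPKM with TSA, against 1.52 without, a difference of 1.47. Npc1l1, known as the intestinal cholesterol importer, was at 4.92 FPKM with TSA, against 1.56 without (1.21). Abcg1 was at 22.1 FPKM in 1-cell, 3.45 in early 2-cell and 1.52 in late 2-cell embryos. At the first cleavage it was the 1 gene of 19 at least 2-fold lower, against 5.53% of all kept genes.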

How the data were processed

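Poly(A) RNA of SCNT embryos was read from 1 table of the whole series. Per the file header, the authors deposited log2(FPKM + 1). The submitters' processing notes name the mm10 build and, with no roles, Cufflinks, deepTools 2.5.7, Bowtie2 2.3.4.3, SAMtools 1.7, HISAT2 2.1.0 and StringTie 1.3.4. Which annotation was used, and how 5 libraries became 1 column, no source used here states. FPKM is relative to the column total, so abundant transcripts lower the values of the others. Of 6 value columns, 2 fit no labelled RNA group and were left out.

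FPKM was recovered by undoing the logarithm (Python 3.11.15, pandas 2.3.3, numpy 2.4.6). Differences were taken with 1 added to FPKM, genes were kept at 1 FPKM or more in some column compared, and 2-fold was the counting line. The 28 genes and the other lists were chosen with earlier results of these data known. All 28 are named. From the other lists at most 3 genes per direction that were 2-fold apart are named, and 1 such gene is not reported here. With 1 value per group there was no test. Low FPKM values of genes up to 2000 bp, multiplied by genomic span, lay within 0.1 of a whole multiple of the best step in 24.5% to 24.7% of cases, against 20% with no steps, so depth could not be recovered. Alternatives were pseudocounts of 0.1 and 5, no filter or 5 FPKM, median-ratio factors, quantile normalization and TPM. The procedure was tested on simulated data. Promoters and positions are from RefSeq (GRCm38.p6), in which all 28 genes were found.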

Additional observations from a re-analysis of the deposited data

How the results depend on the processing

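No paired analysis was possible because the table has 1 column per group and none per numbered library, and for the same reason no library could be left out in turn. Between the 2-cell stages, the enzyme median was 2.33 with a pseudocount of 0.1, 1.23 with 5, 1.58 with median-ratio factors and 1.10 with quantile normalization. The median of all kept genes was 1.14, 0.41, 0.44 and 0.014 in the same order. With the filter on the 1-cell and early 2-cell columns the enzyme median was 1.43, against 0.46 for all kept genes. That setting was chosen after the data were seen. The regulator median was 0.67 with a pseudocount of 5, 0.55 with median-ratio factors and 0.12 with quantile normalization. Genes at least 2-fold higher numbered 11 of 19 with that added filter, against 36.8% of all kept genes. Those lower numbered 1 with median-ratio factors and 2 with quantile normalization, against 18.2% and 25.9%. At the first cleavage, 2 of 26 were at least 2-fold higher with a pseudocount of 0.1, 1 with quantile normalization and 1 with TPM. The shares of all kept genes were 8.92%, 3.93% and 4.41%. Those lower were 2 with a pseudocount of 5 and 1 with quantile normalization, against 2.57% and 4.32% of all kept genes. With TSA, 2 of 26 were at least 2-fold lower with a pseudocount of 0.1, against 8.42% of all kept genes. The early 2-cell value was highest for 1 gene with median-ratio factors and 2 with quantile normalization, under which 8 were highest at 1-cell. The causes were not tested. Over 140 gene values per comparison under 5 pseudocount and scaling alternatives, 138 with TSA, 130 at the first cleavage and 117 between the 2-cell stages kept their side of the 2-fold line, and 5, 7 and 10 had the other sign. With no replicate error, medians were counted as moved at 0.2. Unknown depth limits what can be said of genes under 1 FPKM.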

Other observations

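Enzymes that use farnesyl or geranylgeranyl diphosphate, the isoprenoids that leave the pathway before squalene, were all 14 kept. Between the 2-cell stages 7 were at least 2-fold higher at the late stage and 1 lower, near the 47.1% and 10.8% of all kept genes. Of the 14, 1 reached 1 FPKM at no stage before late 2-cell, so it had to be higher there. Rabggtb, a subunit of the Rab prenyl transferase, was at 75.4 FPKM in late 2-cell, against 5.10 in early 2-cell embryos. Icmt, which methylates prenylated proteins, was at 15.7 against 0.49 FPKM, and Dhdds, which makes dolichol precursors, at 48.3 against 3.89. Pdss2, of ubiquinone side-chain synthesis, was lower, at 4.99 against 14.4 FPKM. At the first cleavage Rce1, a protease of prenylated proteins, was at 0.96 FPKM in early 2-cell, against 3.33 in 1-cell embryos. It was the 1 gene of 14 at least 2-fold lower, against 5.53% of all kept genes. After TPM scaling 3 of 14 were lower there, against 7.82%. With TSA 0 of 14 were 2-fold apart as deposited, where 4.08% of all kept genes were lower and 2.51% higher. With TSA 1 was higher after median-ratio, quantile or TPM scaling, against 3.18%, 2.72% and 3.86%.

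Genes of fatty acid synthesis that SREBP-1 is known to drive were at least 2-fold higher at the late than at the early 2-cell stage in 9 of 12 kept genes and lower in 0, against 47.1% and 10.8% of all kept genes. Of the 12, 8 reached 1 FPKM at no stage before late 2-cell and so had to be higher there. After quantile normalization 6 were higher and 0 lower, against 25.9% and 25.9%. Srebf1 itself was under 1 FPKM in each column. Elovl6, a fatty acid elongase, was at 15.5 FPKM in late 2-cell, against 0.022 in early 2-cell embryos, Scd1, a desaturase, at 50.1 against 2.37, and Scd2 at 13.4 against 0.80. Scd1 was the 1 gene of the 12 at least 2-fold higher with TSA, where 2.51% of all kept genes were. It was at 116 FPKM with TSA, against 50.1 without. At the first cleavage it was also higher, at 2.37 FPKM in early 2-cell, against 0.53 in 1-cell embryos, while Elovl5, another elongase, was lower, at 2.43 against 9.31 FPKM.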
